A study of Homo sapiens with 2 samples.

Results

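Non-apoptotic caspases and the adaptors of NOD-like receptor signalling were followed by quantitative PCR on an apoptosis gene array in LNCaP, an established human cell line derived from a prostate adenocarcinoma. The 7 genes were CASP1 (well C04), CASP4 (C09), CASP5 (C10), CASP14 (C06), NOD1 (F03), PYCARD (F05) and RIPK2 (F06), out of 84 target genes. They were taken by the position of their wells, under a rule that uses no measured value. These genes, and the lists of related genes set beside them below, were chosen with earlier results of these data known. The array is the human apoptosis panel PAHS-012Z named in the labels. Its maker's layout orders the 84 targets alphabetically along rows A to G and puts the housekeeping genes ACTB, B2M, GAPDH, HPRT1 and RPLP0 in wells H01 to H05. The deposited tables carry well positions without gene names, so each gene name below rests on that layout, which was not checked against a gene table of this array.

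The study compared 1 sample of cells incubated for 24 h in the presence of 500 µg/mL C-PC with 1 untreated control sample. C-PC is C-phycocyanin in the deposited tables, a blue light-harvesting pigment protein of cyanobacteria. Per the labels, both samples were grown in the same complete medium, 1000 ng of total RNA each was reverse transcribed, and each was run 3 times over 40 cycles. The tables give 1 threshold cycle (Ct) per well and sample. Whether the 3 runs came from 1 culture or several is not stated in the labels. They are taken here as repeat runs of 1 sample, so there is no replicate check on any difference below, no p-value is given, and the values describe these 2 samples.

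Caspases are cysteine proteases best known for carrying out apoptosis, but several members of the family do other work. CASP1, CASP4 and CASP5 are the inflammatory caspases: CASP1 is activated on inflammasomes and matures interleukin-1 beta and interleukin-18, whereas CASP4 and CASP5 bind bacterial lipopolysaccharide in the cytosol, and all of these can cut gasdermin D to open pores in the plasma membrane. PYCARD, also called ASC, bridges inflammasome sensors to CASP1 through a pyrin domain and a caspase recruitment domain (CARD). NOD1 is a cytosolic sensor of bacterial peptidoglycan fragments and passes its signal through the CARD-bearing kinase RIPK2 to the NF-kB pathway. CASP14 is a caspase of the skin, active in differentiating keratinocytes.

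CASP4, CASP5 and CASP1 lie side by side on chromosome 11 of the RefSeq annotation of GRCh38.p14, at 104942866 to 104968574, 104994243 to 105023168 and 105025443 to 105036686. They are the 3 protein-coding genes annotated within this stretch of 93.8 kb, and CASP5 and CASP1 are separated by 2274 bases. A RefSeq promoter sequence was at hand for 5 of the 7 genes, all but CASP1 and RIPK2. The 250 bases before the annotated starts of CASP4 and CASP5 are shown because these neighbouring genes are alike there. Their log2 folds between the samples were on opposite sides of 0 against the mean of the reference wells (values below). That contrast depends on the scaling, and CASP5 was near the detection limit. With HPRT1 alone the folds of the 2 genes were above 0, and with no reference they were below 0. Both stretches run 5′ to 3′ on the minus strand of GRCh38.p14, CASP4 at chr11:104968575-104968824 and CASP5 at chr11:105023169-105023418. Capitals mark the 8 runs of at least 8 bases that the alignment found identical in both.
CASP4: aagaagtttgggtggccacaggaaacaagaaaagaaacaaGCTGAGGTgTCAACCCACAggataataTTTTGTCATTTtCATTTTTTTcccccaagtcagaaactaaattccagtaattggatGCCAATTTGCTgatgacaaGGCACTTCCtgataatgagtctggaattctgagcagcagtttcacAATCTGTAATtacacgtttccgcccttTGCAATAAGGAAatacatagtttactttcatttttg
CASP5: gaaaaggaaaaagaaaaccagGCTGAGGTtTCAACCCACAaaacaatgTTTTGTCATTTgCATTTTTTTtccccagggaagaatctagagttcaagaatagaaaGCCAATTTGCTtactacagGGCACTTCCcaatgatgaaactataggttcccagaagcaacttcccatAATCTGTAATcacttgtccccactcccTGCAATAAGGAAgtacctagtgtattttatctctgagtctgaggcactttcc
Of 231 aligned bases, 174 were identical (75.3%). The other 9 pairs among the 5 promoters, aligned in the same way, had 49.3% to 62.3% identical bases. The shared runs hold 80 bases in all, the longest being 12 bases.

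The upstream stretch of PYCARD is shown as that of the gene with the lowest log2 fold of the set. It lies at chr16:31202761-31203010 on the minus strand of GRCh38.p14, and capitals mark CG dinucleotides.
PYCARD: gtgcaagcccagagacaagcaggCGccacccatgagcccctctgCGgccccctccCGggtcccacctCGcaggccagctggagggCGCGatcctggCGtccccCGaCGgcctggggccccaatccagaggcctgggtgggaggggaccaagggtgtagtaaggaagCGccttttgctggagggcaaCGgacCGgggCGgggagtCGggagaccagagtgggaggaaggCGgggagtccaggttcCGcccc
This stretch holds 16 CG dinucleotides with a GC content of 71.2%. CASP4 has 2 CG dinucleotides in the matching 250 bases, CASP5 has 0, CASP14 has 4 and NOD1 has 26. The median over 35116 promoters of the RefSeq table was 11, and 59.0% of them held fewer than PYCARD. CG dinucleotides are the sites of DNA methylation in human cells, which was not measured here.

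The scale of every fold below comes from the 5 reference wells, as in the authors' own calculation. A higher Ct means less template, 1 cycle standing for a factor of 2 at full amplification efficiency. The reference wells crossed later in C-PC by 0.21 to 1.21 cycles, with a mean of 0.76 ± 0.39 cycles (SD over 5 wells). A log2 fold here is the mean reference shift minus the shift of the gene's own well, and the ± 0.39 beside it is that SD. It contains neither the error of the target well nor any spread between cultures. The 72 target wells with a Ct under 35 in both samples had a median shift of 0.24 cycles. Scaling to that plate median lowers every log2 fold by 0.51.

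Of the 7 genes, 6 were detected in both samples at a Ct under 35, and CASP14 in neither. All 6 had a later Ct in C-PC than in the control, by 0.044 to 1.64 cycles, as did 47 of the 72 detected targets and all 5 reference wells. These raw values are not scaled for the amount of template in each reaction. For a scaled level in RNA from a whole culture, fewer expressing cells and less RNA per cell cannot be told apart. After scaling to the reference wells, CASP4 and RIPK2 had log2 folds above 0, and CASP1, NOD1, CASP5 and PYCARD below 0. None of the 6 (0) reached 2-fold higher, against 20.8% of the 72 detected targets. None (0) reached 2-fold lower, against 1.39% of the 72. When the plate median set the scale, 0 of the 6 passed 2-fold upward, against 9.72% of the 72, and 1, PYCARD, passed it downward, against 6.94%.

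**Figure D1:**
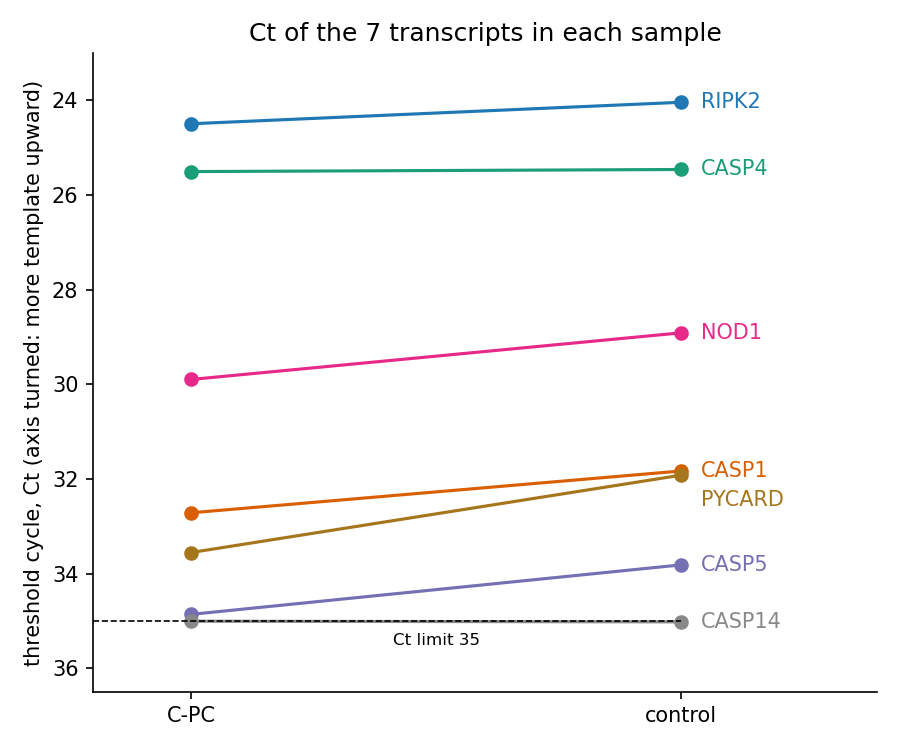
Ct of each of the 7 transcripts in the C-PC sample (left) and the control sample (right), 1 value per sample, on an axis turned so that more template is upward. The lines of 6 genes run lower at the C-PC end, CASP4 by 0.044 cycles, and CASP14 sits at the limit of 35 in both samples.

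Among the inflammatory caspases, CASP4 was the transcript that crossed early. Its Ct was 25.5 in both samples, with a shift of 0.044 cycles. Relative levels are given in parts per 1000000 of the mean of the reference wells, and that of CASP4 was 13225 in C-PC and 8079 in the control. The level stood 1.64-fold higher in C-PC, a log2 fold of 0.71 ± 0.39. The sign of this fold depends on the scaling, since the raw Ct values were nearly the same. Against single reference wells the log2 fold lay between 0.17 and 1.17, above 0 with all 5 and past 2-fold with HPRT1 alone. Against the plate median it was 0.20.

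CASP1, the effector protease of the classical inflammasomes, crossed late. Its Ct was 32.7 in C-PC cells and 31.8 in control cells. The relative level was 89.3 in C-PC and 97.7 in the control. The log2 fold of -0.13 ± 0.39 was smaller than the spread of the reference wells, and its sign was not settled: it was below 0 with 3 single reference wells and above 0 with 2. Against the plate median it was -0.64, or 1.56-fold lower in C-PC.

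CASP5, the closest relative of CASP4, was near the detection limit. It had a Ct of 34.9 in C-PC cells and 33.8 in control cells, so the C-PC value lay 0.14 cycles inside the limit. The log2 fold was -0.29 ± 0.39 against the reference wells and -0.80 against the plate median. It was below 0 with 4 of 5 single reference wells. The Ct values of CASP4 and CASP5 come from different assays with unknown efficiencies, and no ratio of their levels is drawn from them.

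CASP14 gave no measurable level. Its Ct stood 0.0061 cycles past 35 in C-PC and 0.020 cycles past 35 in the control. The authors' deposited table of folds lists 1.67 for this gene. That figure is close to the shift of the reference wells alone (log2 0.74 in the authors' table against a mean reference shift of 0.76), and no fold is given here. The annotation places CASP14 on chromosome 19 at 15049480 to 15058293.

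PYCARD, the inflammasome adaptor, had the lowest log2 fold of the 6. Its Ct was 33.6 in C-PC cells and 31.9 in control cells, a delay of 1.64 cycles. The relative level was 49.9 in C-PC and 91.9 in the control. This is 1.84-fold lower in C-PC, a log2 fold of -0.88 ± 0.39, and 2.63-fold lower against the plate median. PYCARD was the one gene of the 6 whose log2 fold was below 0 with all 5 single reference wells, from -1.42 with RPLP0 to -0.43 with HPRT1. It passed 2-fold lower with RPLP0 and, at -1.06, with ACTB. Among the 72 detected target wells it ranked second from the lowest, after the survivin gene BIRC5 at -6.29. That ranking leaves out wells detected in the control alone. TNFRSF9 and BCL2A1 are such wells, with a C-PC value of 35. If 35 means a level no higher than that of Ct 35, their log2 folds are at most -1.24 and -0.97, below that of PYCARD. The PYCARD gene spans 31201486 to 31202760 on chromosome 16.

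NOD1, the peptidoglycan sensor, crossed at a Ct of 29.9 in C-PC cells and 28.9 in control cells. The relative level was 629.7 in C-PC and 738.9 in the control. The log2 fold was -0.23 ± 0.39, with 3 single reference wells giving a value below 0 and 2 above. Against the plate median it was -0.74, or 1.68-fold lower in C-PC. The gene lies on chromosome 7 at 30424527 to 30478784.

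RIPK2, the kinase that NOD1 recruits, crossed earliest of the set. It had a Ct of 24.5 in C-PC cells and 24.0 in control cells. The relative level was 26636 in C-PC and 21621 in the control. The log2 fold of 0.30 ± 0.39 was smaller than the spread of the reference wells. It was above 0 with 4 of 5 single reference wells and was -0.21 against the plate median. Sensor and kinase thus had log2 folds on opposite sides of 0 against the mean of the reference wells, and likewise with ACTB or B2M alone. Both were above 0 with GAPDH or HPRT1 alone, and both below 0 with RPLP0 alone and against the plate median. RIPK2 is on chromosome 8 at 89757816 to 89791064 in the same annotation.

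**Figure D2:**
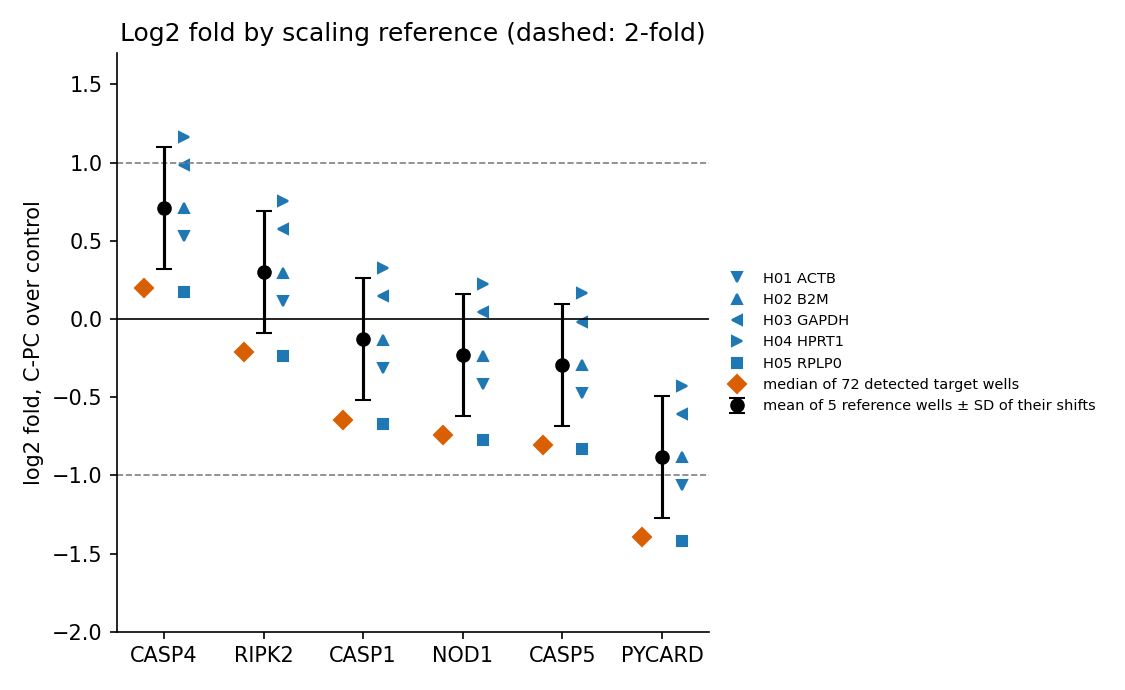
Log2 fold, C-PC over control, of the 6 detected genes. Black points use the mean of the 5 reference wells, with bars for the SD of the reference shifts (0.39); blue marks use each reference well alone and orange diamonds the median of the 72 detected target wells. The order of the genes is the same under every reference by construction, since each reference moves all genes alike. PYCARD is below 0 and CASP4 above 0 with each reference shown.

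The reference drops out when 2 genes of the set are compared with each other, because it moves both by the same amount. On this footing the log2 folds ran in the order CASP4, RIPK2, CASP1, NOD1, CASP5 and PYCARD. CASP4 and PYCARD differed most, by 1.59 on the log2 scale, a 3.01-fold difference between their folds. Within the chromosome 11 cluster, the log2 fold of CASP4 was 0.84 above that of CASP1 and 1.00 above that of CASP5, while CASP1 and CASP5 were 0.16 apart. NOD1 and CASP5 were 0.060 apart and CASP1 and NOD1 0.10 apart, and the order of these 3 genes is not settled. The SD of the reference shifts does not measure the error of a difference between genes, for small or larger gaps. RIPK2 was 0.53 above NOD1. PYCARD was 0.75 below CASP1, the caspase it recruits. These differences carry the measurement error of both wells, which the deposited values do not give.

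Set against the panel, the 6 detected genes lay mostly in its lower part. Their median log2 fold was -0.18, and that of all 72 detected target wells was 0.51, with quartiles at 0.22 and 0.87. CASP4 was the 1 gene of the 6 above the panel median, at rank 28 of 72 counted from the highest. RIPK2 stood at rank 52, CASP1 at 60, NOD1 at 63, CASP5 at 65 and PYCARD at 71. In the panel 14 of 72 wells had a log2 fold below 0, and 4 of these 14 were CASP1, NOD1, CASP5 and PYCARD. With 1 sample per group these are positions in 1 comparison, and nothing was tested.

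**Figure D3:**
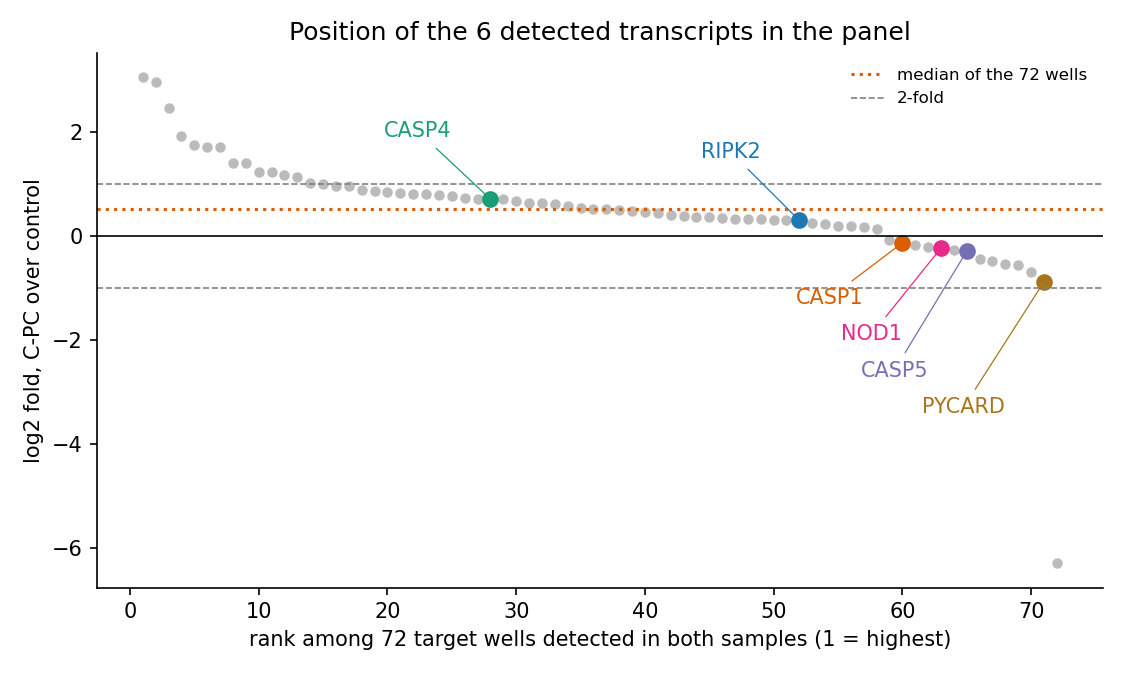
Log2 fold, C-PC over control, of the 72 targets detected in both samples, ranked from the highest, with the 6 genes in colour and the other wells in grey. CASP4 at rank 28 lies above the panel median of 0.51 (dotted) and the other 5 below it, with PYCARD at rank 71.

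The 3 detected genes with a control Ct of 30 or later were CASP1, CASP5 and PYCARD. A late Ct can come from little template, but the efficiencies of the assays are unknown. Of 11 target wells that late and detected in both samples, the other 8 had log2 folds from 0.33 to 1.71, all above 0, and CASP1, CASP5 and PYCARD were the 3 below 0. A further 5 wells that late were detected in the control alone. Their C-PC values stood at 35, which puts their log2 folds at or below values from -0.094 to -1.24 if a deposited 35 means a level no higher than that of Ct 35. Another 2 were detected in C-PC alone, CD70 and TNFSF8, with log2 folds of at least 3.34 and at least 1.92 on the same reading of 35. Late wells thus went both ways. The part of a late Ct in the values of CASP1, CASP5 and PYCARD was not tested. The 61 detected wells with an earlier control Ct had a median log2 fold of 0.51.

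**Figure D4:**
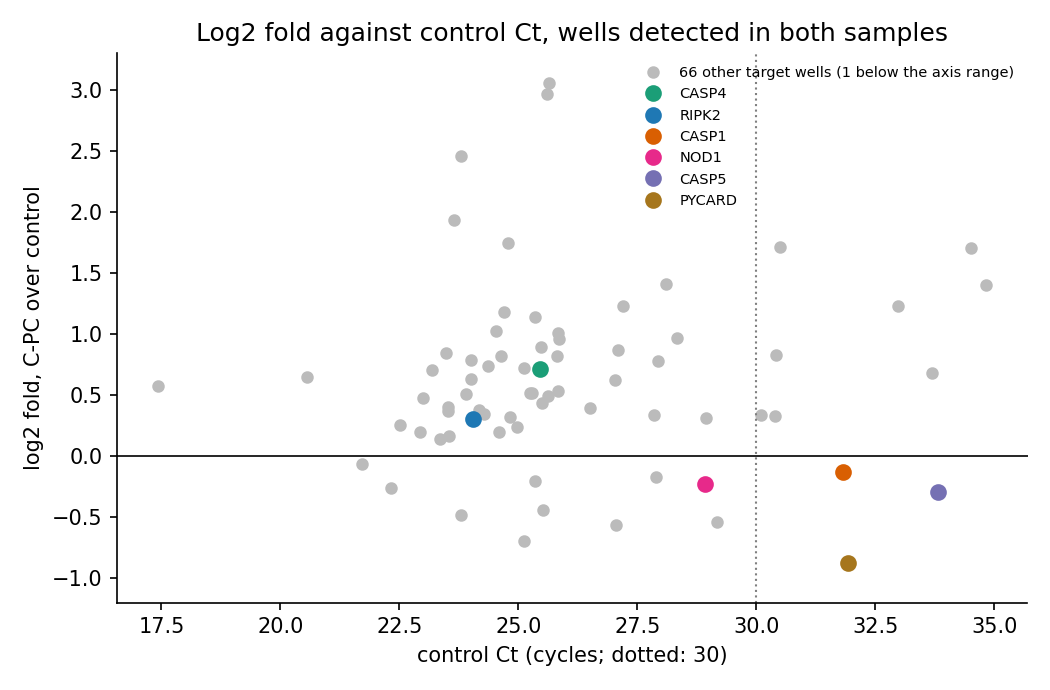
Log2 fold, C-PC over control, against the control Ct for the 72 targets detected in both samples, with the 6 genes in colour and 1 other well (BIRC5, at -6.29) below the axis range. Right of the dotted line at 30 cycles, CASP1, CASP5 and PYCARD lie below 0 and the other 8 wells above it.

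Related genes of the panel give the setting. The 6 caspases of apoptosis described here were detected in both samples (6 of 6). Their median log2 fold was 0.62. Against the reference wells 0 were at least 2-fold higher or lower, beside 20.8% and 1.39% of the 72 detected targets. CASP6, an executioner caspase, was the highest of these 6 at 0.89, and CASP10, an initiator of death receptor signalling, the lowest at 0.33. CASP4 at 0.71 lay next to CASP2 at 0.72. The initiators CASP8 and CASP9 were at 0.87 and 0.51.

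Proteins with a CARD meet by pairing of that domain, and 8 further genes of the panel encode one. All 8 were detected, with a median log2 fold of 0.68 and a range from -0.21 for APAF1, the scaffold of the apoptosome, to 1.22 for BIRC3, an inhibitor of apoptosis with ubiquitin ligase activity. BIRC3 was the 1 of these 8 at least 2-fold higher, and 0 were at least 2-fold lower. Over all 72 detected targets the shares were 20.8% and 1.39%. For the 7 genes of NF-kB signalling that act after NOD1 and RIPK2, the median was 0.63. Of these 7, 2 were at least 2-fold higher, BIRC3 and XIAP (1.02), both ubiquitin ligases, and 0 at least 2-fold lower. The same panel shares of 20.8% and 1.39% stand beside these counts, and no difference from them was tested. Against the plate median neither list had a gene past 2-fold in either direction (0), beside 9.72% higher and 6.94% lower in the panel. TRAF2, an adaptor with ubiquitin ligase function, was the lowest of these 7 NF-kB genes at -0.44. NFKB1, which encodes the p105 precursor of the p50 subunit, stood at 0.82, and TNF, a cytokine gene switched on by NF-kB, at 0.31. NAIP, the other NOD-like receptor of the panel, had a Ct of 25.6 in C-PC cells and 25.9 in control cells and a log2 fold of 0.96, 1.19 above that of NOD1.

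**Figure D5:**
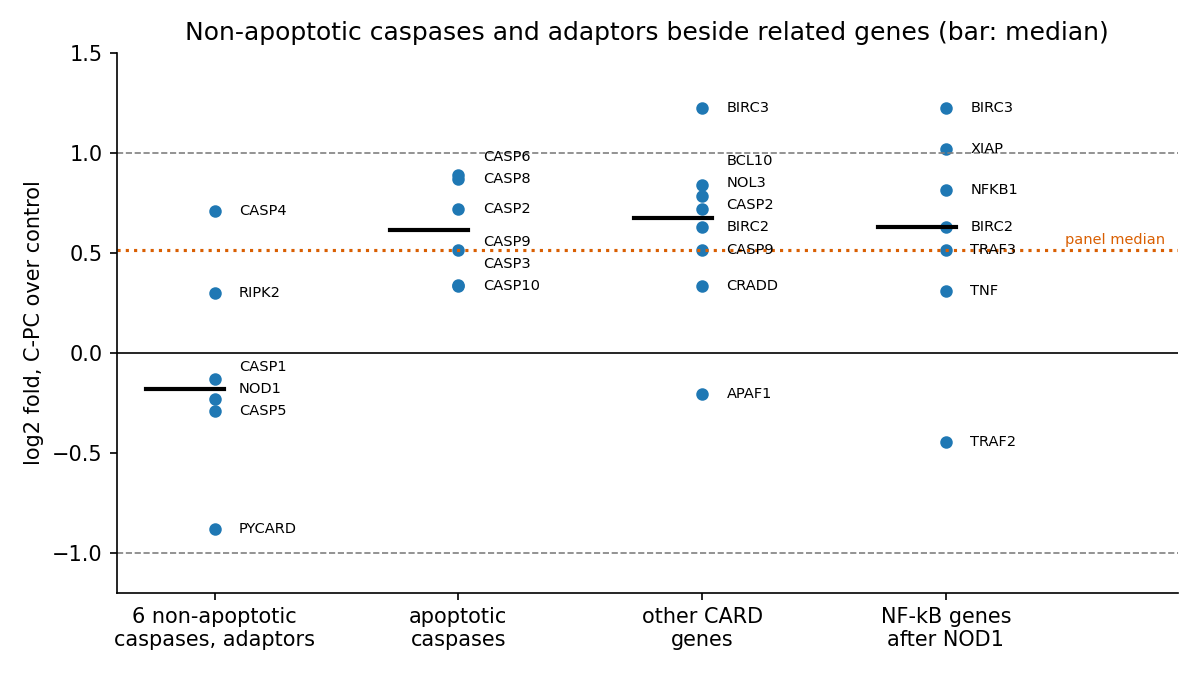
Log2 fold, C-PC over control, of the 6 detected genes beside 6 apoptotic caspases, 8 other CARD genes and 7 NF-kB genes that act after NOD1 and RIPK2 (some genes are in more than 1 list). Black bars are medians, at -0.18, 0.62, 0.68 and 0.63, and dashed lines mark 2-fold.

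Inflammasome genes are abundant in blood cells, so genes of lymphocytes and myeloid cells were looked at in the same plate. Of 9 such genes, 1 (LTA) was detected in both samples, 2 in the C-PC sample alone (CD70 and TNFSF8), 3 in the control alone and 3 in neither. Of all 84 target wells, 72 were detected in both samples, 2 in C-PC alone, 5 in the control alone and 5 in neither. The list does not hold every gene of the panel that blood cells express. CD40, TNFRSF1B and TNF, which are outside it, were detected in both samples. No well of the panel is a defining marker of prostate epithelium, so the labelled cell type could not be checked in these tables.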

How the data were processed

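Transcripts were measured by SYBR Green quantitative PCR in 1 C-PC sample and 1 control sample. The authors deposited Ct values, not normalized per the file headers, a fold change or ratio of C-PC over control (2 to the power of minus ΔΔCt on a housekeeping scale, per the file headers), and a second table of ratios with no stated scale. For 6 of the 7 genes that second ratio matched a level computed from Ct minus the mean Ct of H01 to H05, with a log2 tolerance of 0.01. For CASP14 the control value matched a Ct of 35. No source used here says how the runs were combined. PCR cycles carry no read depth, so the number of samples limits the precision.

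Log2 folds were recalculated from Ct against the mean shift of H01 to H05. Detection meant a Ct under 35, and 2-fold was the threshold. All 7 genes are named, with the reference genes, and lists are described by counts, median and extremes. A further gene of the apoptotic caspase list is not reported here, and the counts and median of that list leave it out. CASP2, CASP9, BIRC2 and BIRC3 serve in more than 1 list. The genes and lists were chosen with earlier results of these data known. Promoters are RefSeq's on GRCh38.p14, matched by symbol and aligned globally (match 1, mismatch -1, gap opening -3, gap extension -0.5). All 89 symbols of the layout are in the RefSeq gene table. The calculation was tested on simulated data. That test bears on the arithmetic alone and is no check on any measured fold, those of late wells included. Python 3.11.15, numpy 2.4.6, pandas 2.3.3, matplotlib 3.10.9 and Biopython 1.88 were used.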

Additional observations from a re-analysis of the deposited data

How the results depend on the processing

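The choice of reference moved the values most. Counting genes of the set that stood 2-fold or more higher gave 0 with all reference wells averaged, 1 with HPRT1 (H04) alone, where CASP4 reached 1.17, and 1 with a 1.5-fold threshold. Genes at least 2-fold lower, 0 at first, numbered 1 (PYCARD) with ACTB (H01) alone, 1 with RPLP0 (H05) alone, 1 with the plate median, 1 with a 1.5-fold threshold and 2 with no reference, CASP5 joining at -1.05. The median log2 fold of the detected genes, -0.18 at first, was 0.27 with HPRT1 alone, -0.72 with RPLP0 alone, -0.69 with the plate median, -0.93 with no reference and 0.30 with a Ct limit of 32, which leaves CASP4, NOD1 and RIPK2. Over the alternatives PYCARD stayed between -1.64 and -0.43. CASP4 lay between -0.044, with no reference, and 1.17. The sign differed from the first value in 2 of 12 alternatives for CASP1, 1 of 12 for CASP5, 2 of 13 for NOD1, 3 of 13 for RIPK2, 1 of 13 for CASP4 and 0 of 12 for PYCARD. Some of the alternatives counted could not change a sign. Another Ct limit, or none, leaves the fold of a gene it keeps as it was. The authors' folds and ratios rest on the same Ct values and reference wells. With a Ct limit of 37 or none, CASP14 would be listed at 0.77, from Ct values at 35. In all, 82 of 118 alternative values moved by less than the SD of the reference shifts (counts: within 1.5 times). These 82 include the gene folds under other Ct limits and from the authors' values, which had little or no room to move. The share is therefore no measure of stability. The alternatives are not separate checks, as each reference moves all genes alike. Leaving out runs was not run, since 1 value per well is given. No paired analysis was possible because there is 1 sample in each condition.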
